A study of Sus scrofa with 3 samples.

Results

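A set of 76 genes was lower in both castrated groups of miniature pigs than in the intact group and stayed at least 2-fold below it in castrated pigs given weekly testosterone. The members were chosen by a rule on their measured values. A member is a gene classed as mRNA that stood at 20 UQRPKM or more in the library of intact male pigs (IM) and at 2 times or more the value of both the castrated male pigs (CM) and the castrated pigs given testosterone (CMT). UQRPKM is the number of reads per kilobase of a gene scaled by the upper quartile of reads per gene in the library. The rule took 76 of 22826 mRNA genes, which is 0.333%, or 0.733% of the 10362 genes that reached 20 UQRPKM in IM.

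The pigs were male Chinese Wuzhishan miniature pigs of 6 to 7 months, and all of them ate a standard diet for 7 weeks and then a diet high in fat and cholesterol (HFC) for 84 days. IM pigs kept their testes and received skin incisions only. CM pigs were castrated. CMT pigs lost their testes as well and were injected each week, into muscle, with 10 mg/kg testosterone propionate in corn oil. An oil injection of IM or CM pigs is not given in the sources used here, and no group ate a standard diet throughout. RNA of visceral fat, taken from the retroperitoneal depot, was pooled within each group and sequenced as 1 library per group. The methods give 4 pigs per pool, whereas the labels give between 4 and 6 pigs. No value therefore has a replicate check, and a difference between pools cannot be told apart from a difference between treatments. The IM library stands in both ratios of the rule, so the CM and CMT ratios of a member share that library.

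Visceral fat holds adipocytes together with vessels, nerves, stromal cells and resident leukocytes, and RNA of the whole tissue mixes all of them. Testosterone is a steroid hormone of the testis that alters transcription in the cells that sense it. The testis also releases other hormones, among them estradiol, inhibin and insulin-like 3, which castration removes and testosterone propionate does not directly supply.

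Reads recovered from the deposited values numbered 16611931, 15561124 and 15106608 over all genes of the IM, CM and CMT library. The adipocyte hormone gene ADIPOQ stood at 74928, 69193 and 63873 UQRPKM in IM, CM and CMT, so the labelled tissue was borne out in every library. Adipocyte genes were not all level, and PLIN4 stood at 8944, 9349 and 4585. The 4 adipocyte genes in the files had a median log2 ratio to IM, with a pseudocount of 1, of 0.01 in CM and -0.40 in CMT. Over all mRNA genes it was -0.05 and -0.07. Genes of other tissues were high in a castrated library. The liver gene ALB stood at 2.61, 2910 and 4.00 UQRPKM in IM, CM and CMT, and the muscle gene ACTA1 at 49.8, 39.8 and 3589. ALB was high only in CM and ACTA1 only in CMT. No gene of the liver or skeletal muscle marker lists was a member, beside 76 of the 15722 mRNA genes that reached 1 UQRPKM in some library. A gene that is higher in a castrated library than in IM cannot meet the rule, so nothing is read from this absence. In RNA of a whole tissue, fewer cells of a type and less RNA per cell cannot be told apart.

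The members were mostly genes of modest level. Their IM values ran from 20.1 to 934 UQRPKM with a median of 37.9, while the median of all genes at 20 UQRPKM or more was 121. In CM their median was 11.3 UQRPKM and in CMT it was 11.1. The median member kept 31.5% of its IM value in CM and 31.3% in CMT, and the median of all 10362 genes kept 94.8% and 93.3%. The size of the gap to IM was set in part by the rule, so these shares are a description. They differed widely among the members. In both castrated libraries together, 8 members were at least 10-fold below IM, 14 were at least 4-fold below it, and 18 were less than 3-fold below it.

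**Figure D1:**
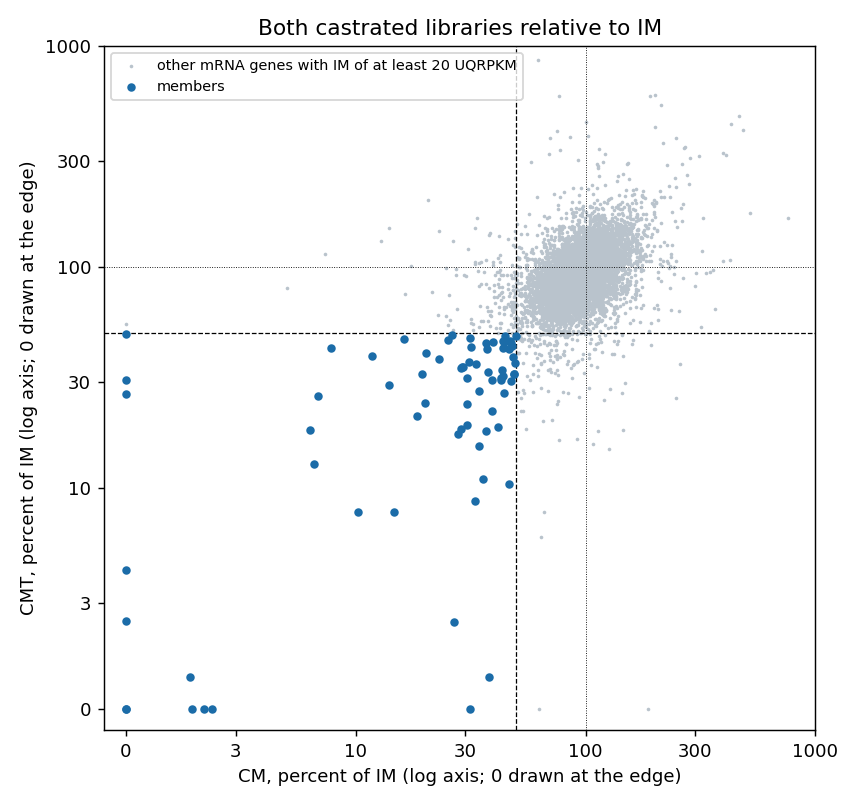
Each point is an mRNA gene with at least 20 UQRPKM in IM; the x axis gives its CM value and the y axis its CMT value as a percent of IM, both on log axes with values of 0 drawn at the edge. The 76 members (blue) fill the lower left corner that the dashed lines of the rule cut off, and the other genes (grey) gather near 100 percent on both axes.

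The rule asked for both castrated libraries, and far more genes met it in only 1 of them. CM was at least 2-fold below IM in 216 genes, which is 2.08% of the 10362. CMT was at least 2-fold below IM in 246 genes, which is 2.37%. Of the 216 genes low in CM, 76 were members and 48 were between 1.5-fold and 2-fold below IM in CMT. A further 89 were within 1.5-fold of IM in CMT, and 3 were at least 1.5-fold above it. Among the 246 genes low in CMT, 107 were within 1.5-fold of IM in CM and 6 were at least 1.5-fold above it. The reverse rule, with both castrated libraries at 20 UQRPKM or more and at least 2-fold above IM, took 57 of 9881 genes, or 0.577%.

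Counting error was large for part of the members. The reads behind a member in IM ran from 10 to 1618 with a median of 83.5, against 407.5 for all genes at 20 UQRPKM or more. In IM, 32 members had 100 reads or more and 7 had fewer than 20. In the castrated libraries, 7 members had no read in CM, 6 had none in CMT, and 2 had none in either. The exact Clopper-Pearson 95% intervals of both ratios lay below 1 for 71 members and below a 2-fold reduction for 26. The other 5 members with an interval that reached 1 were LOC102159841, LOC102165869, LOC102159369, LOC100739498 and LOC102161743, all with fewer than 20 reads in IM. Reads of amplified libraries are not independent molecules, so intervals here cover counting error only.

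Members differed from other genes in 2 further features that the rule did not name. A name made of LOC and digits, which marks a gene without an assigned symbol, was carried by 44 members, or 57.9%, and by only 2074 of the 10362 genes. Of these 44 members, 27 had 50 reads or more in IM. Whether the share of LOC names goes with low read numbers was not tested. The median recovered length was 1256 bases for members and 2051 for all genes at 20 UQRPKM or more. Length enters UQRPKM, and at the same UQRPKM a shorter gene has fewer reads, so this difference is not independent of the rule. Recovered lengths can also be too short by a common factor. RefSeq for assembly Sscrofa11.1 held 37 of the members, and it gave symbols to 7 of the LOC names, which are used below with the deposited name. By function, 39 members were sorted into groups after their values were known, and 37 carried no name that allowed it. Gene lists are used below, and a listed gene counts as measured if it reached 1 UQRPKM in some library. Of all 15722 mRNA genes measured in this way, 76 were members. A short list would mostly hold no member at that share, so a list without one is not read as a result.

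**Figure D2:**
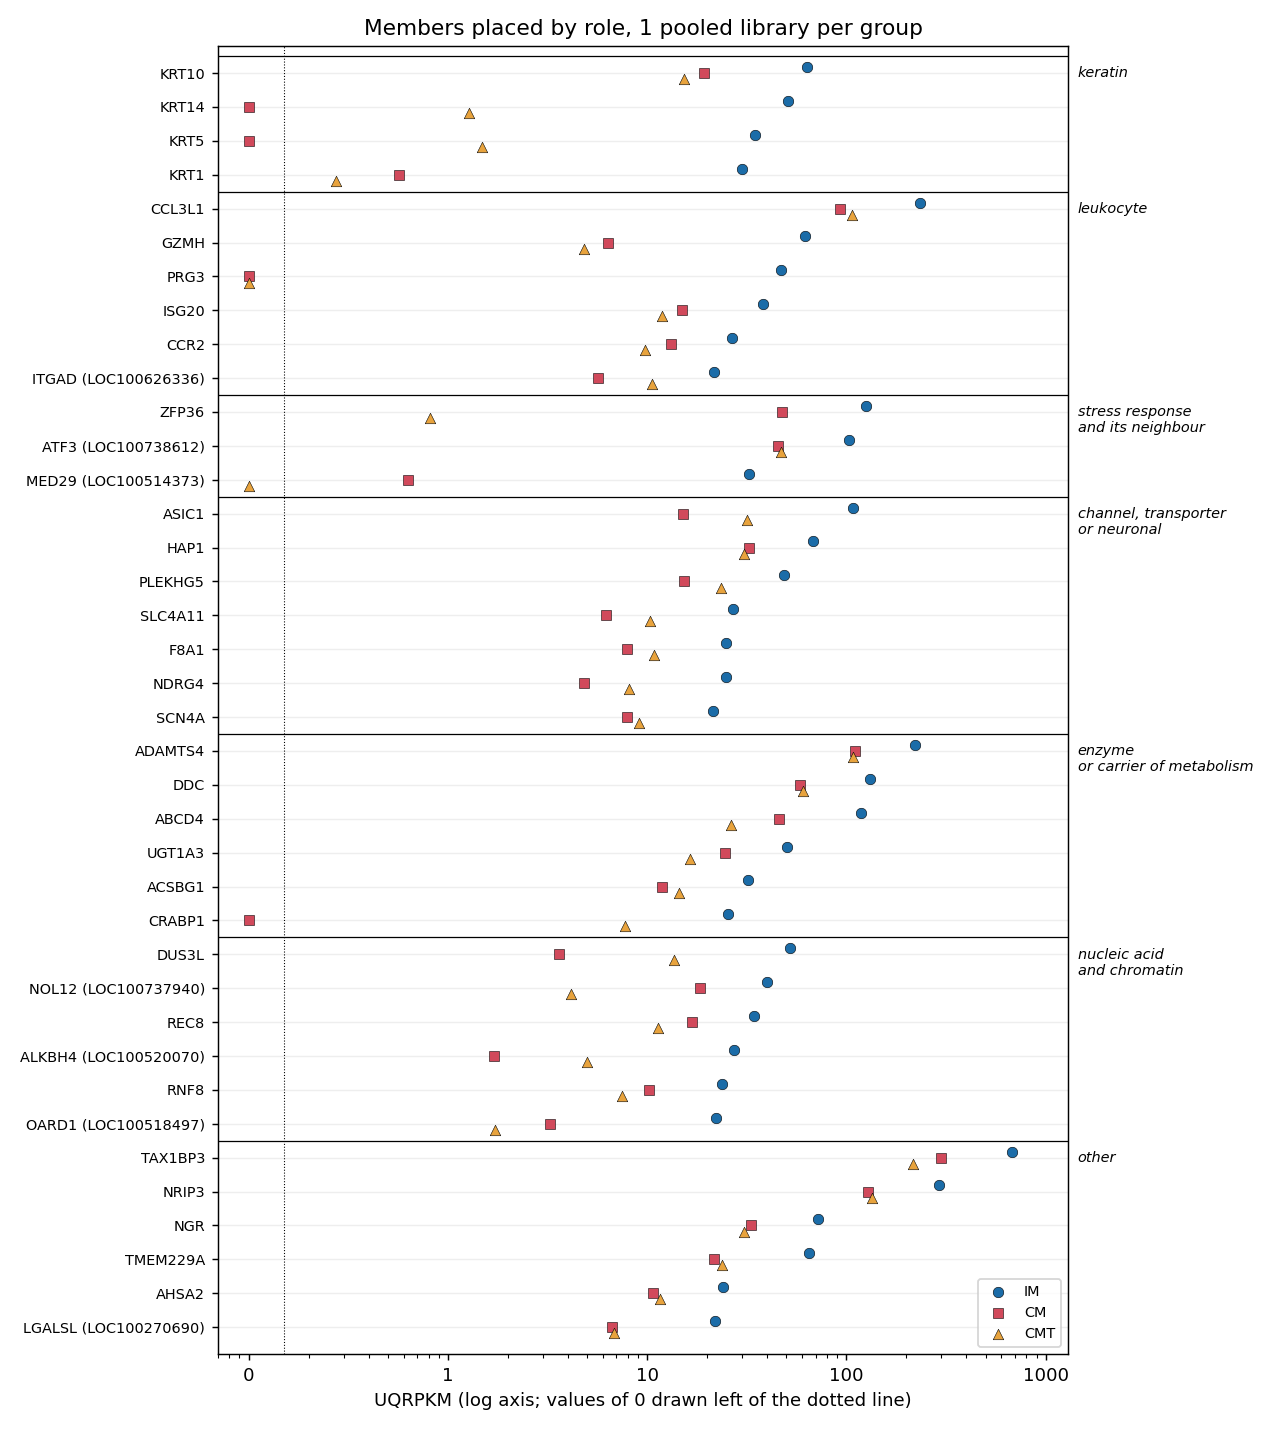
UQRPKM on a log axis for 38 members sorted by role, with IM as circles, CM as squares and CMT as triangles and values of 0 left of the dotted line; each symbol is 1 pooled library. IM is the rightmost symbol in every row because of the rule, while CM and CMT change places between rows.

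Keratins of the epidermis made up 4 of the members, and 3 of them were near 0 in both castrated libraries. Keratins are the filament proteins of epithelial cells, with KRT5 and KRT14 paired in the basal layer and KRT1 and KRT10 in the layers above it. KRT14 stood at 51.2 UQRPKM in IM (123 reads), 0 in CM and 1.27 in CMT (3 reads). Against a floor of 3 reads, IM was at least 39.1-fold above CM. KRT5 stood at 34.8 UQRPKM in IM (24 reads), 0 in CM and 1.48 in CMT (1 read), and IM was at least 7.62-fold above CM. The basal pair was thus at 1.48 UQRPKM or less in both castrated libraries, and recovered reads can be too low by a common factor.

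Of the upper pair, KRT1 stood at 29.9, 0.566 and 0.275 UQRPKM in IM, CM and CMT, from 111, 2 and 1 reads. Its log2 ratio was -5.72 in CM (95% interval -8.79 to -3.84) and -6.77 in CMT (-12.08 to -4.26). KRT10 was less far below IM, at 63.7, 19.4 and 15.3 UQRPKM. On the log2 scale its ratio was -1.72 in CM (-2.14 to -1.31) and -2.06 in CMT (-2.52 to -1.62). The 2 castrated libraries overlapped in their intervals for each of the keratins, and no keratin passed the exact test between CMT and CM.

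Other epidermal genes, listed after the keratin values had been seen, were mostly low and mostly highest in IM. Of 28 such genes in the files, 18 reached 1 UQRPKM in some library, and 11 of these stood at 2 times or more of both castrated libraries in IM, the 4 keratin members included. Of all mRNA genes that reached 1 UQRPKM in some library, 3.16% met that rule with IM at 1 UQRPKM or more, and 2.56% met the reverse rule. The 7 that were no members fell short of 20 UQRPKM. Among them, KRTDAP stood at 9.58 UQRPKM in IM and 0 in both castrated libraries, and SBSN, a secreted protein of the epidermis, at 11.4, 0.429 and 2.50. KRT13 stood at 4.53 UQRPKM in IM and 0 in the others.

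Not every epidermal gene had this order. DSP, a desmosome protein that other epithelia and heart muscle also make, stood at 2.73, 9.75 and 11.3 UQRPKM in IM, CM and CMT. SPINK5 stood at 31.5, 30.7 and 12.7. The cornified envelope genes LOR, FLG and IVL and the desmoglein genes DSG1 and DSG3 were listed at 0 in all libraries. The summed level of the epidermal genes was 275, 72.3 and 55.2 UQRPKM in IM, CM and CMT. That sum includes the 4 keratin members, so its order was set in part by the rule and is a description. KRT8, a keratin of simple epithelia and mesothelium, went the other way, at 51.2, 102 and 307. KRT18, its usual partner, stood at 28.7, 26.7 and 14.4, and CLDN4, a tight junction protein, at 34.4, 9.13 and 45.1. The mesothelial list summed to 41.8, 80.1 and 183. The part of these other cell types in the keratin values was not tested.

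**Figure D3:**
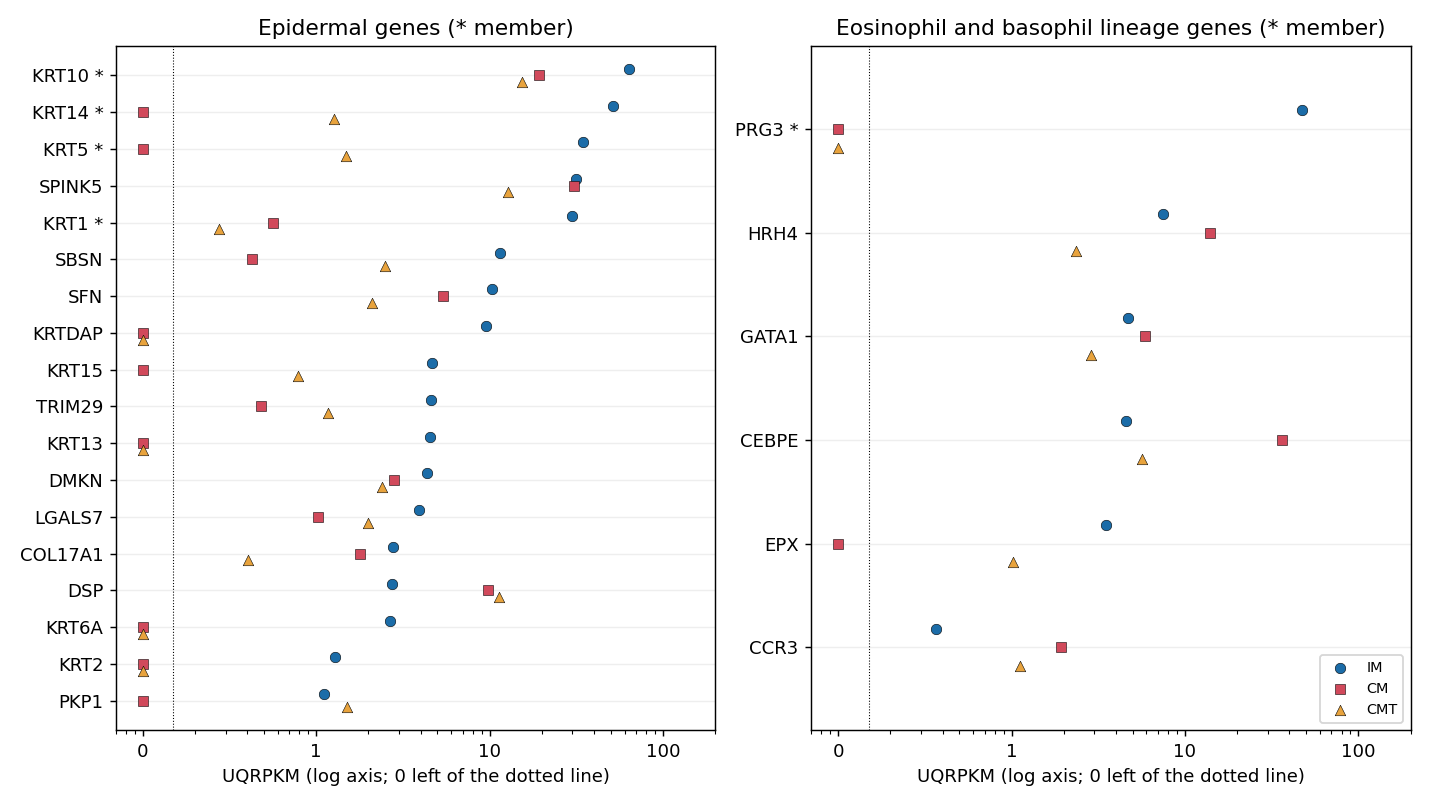
UQRPKM on log axes for 18 epidermal genes (left) and 6 genes of the eosinophil and basophil lineage (right) that reached 1 UQRPKM in some library, with members starred, 1 pooled library per symbol and values of 0 left of the dotted line. On the left, IM is the highest symbol for all genes but DSP and PKP1; on the right, PRG3 has symbols at 0 in both castrated libraries, while CEBPE, HRH4, GATA1 and CCR3 are highest in CM.

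Leukocyte genes formed a second group of 6 members. PRG3, a granule protein of eosinophils, stood at 47.1 UQRPKM in IM (64 reads) and had no read in CM or CMT. At a floor of 3 reads, IM was at least 20.3-fold above CM and at least 20.9-fold above CMT. LOC100625180, which has no symbol, had the same order with 54.5 UQRPKM in IM (74 reads) and no read elsewhere. Both gene models had a recovered length of 911 bases, and whether their reads came from 1 gene was not tested. These were the only members with no read in either castrated library.

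The rest of the eosinophil list, added after PRG3 had been seen, did not follow it as a whole. EPX, the eosinophil peroxidase, stood at 3.49, 0 and 1.02 UQRPKM in IM, CM and CMT. CEBPE, a transcription factor of granulocytes, stood at 4.60, 36.2 and 5.63, and HRH4 at 7.51, 13.9 and 2.36. Of the mast cell genes, MS4A2 stood at 66.5, 60.1 and 66.7, while IL1RL1 stood at 8.19, 2.23 and 1.86 from 27, 7 and 6 reads. Of the 6 measured genes of the eosinophil list, 2 met the 2-fold rule at any level above 1 UQRPKM, namely EPX and PRG3. PRG3 had prompted the list, and 3.16% of all measured mRNA genes met that rule.

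GZMH, a protease of cytotoxic lymphocyte granules, stood at 62.2, 6.39 and 4.83 UQRPKM in IM, CM and CMT, from 92, 9 and 7 reads. Relative to IM its log2 ratio was -3.28 in CM (95% interval -4.46 to -2.30) and -3.69 in CMT (-5.04 to -2.59). GZMB, the granzyme gene next to it in the Sscrofa11.1 gene order, stood at 29.4, 17.4 and 16.9. None of the 9 measured genes of the cytotoxic lymphocyte list was a member, beside 76 of 15722 over all measured mRNA genes. PRF1, the pore protein of the same granules, stood at 50.5, 34.6 and 43.2, and the list summed to 1362, 1107 and 1103. The T cell list summed to 466, 386 and 466 UQRPKM. How reads were divided between similar granzyme genes is not given in the sources used here.

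Chemokine genes supplied a ligand and a receptor. CCL3L1, a ligand that attracts monocytes and T cells, stood at 233, 92.4 and 107 UQRPKM in IM, CM and CMT. CCL4, a related ligand, stood at 615, 325 and 362 and missed the rule. CCR2, the monocyte receptor for CCL2, stood at 26.7, 13.2 and 9.81, and its CM value lay 2.02-fold below IM. CCL2 itself stood at 189, 216 and 159. CCL3L1 and CCR2 were the 2 members among 13 measured genes of a list of monocyte chemokines, receptors and markers. Over all measured mRNA genes 76 of 15722 were members, and the list was formed with the values known. The monocyte marker CD14 stood at 390, 395 and 339, and the list had median log2 ratios, with a pseudocount of 1, of -0.03 in CM and -0.35 in CMT.

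Integrin alpha D (ITGAD, LOC100626336), which pairs with ITGB2 on leukocytes, stood at 21.6, 5.66 and 10.6 UQRPKM. ITGB2 stood at 229, 239 and 202, and ITGAM at 108, 138 and 73.5. ISG20, an exonuclease induced by interferon, stood at 38.3, 15.0 and 11.8 from 43, 16 and 13 reads. No leukocyte member passed the exact test between CMT and CM, and PRG3, with no read in either, was not tested.

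ZFP36, also called tristetraprolin, marks mRNAs with AU-rich elements for decay and is itself an immediate early gene. It stood at 125, 47.5 and 0.810 UQRPKM in IM, CM and CMT, from 316, 114 and 2 reads. Its log2 ratio was -1.40 in CM (95% interval -1.72 to -1.09) and -7.27 in CMT (-10.33 to -5.41). CMT lay 58.6-fold below CM. That difference passed the exact binomial test with a Benjamini-Hochberg adjusted p of 1.39e-30, the smallest among the members. The rule used both values, so this result describes the 2 libraries only.

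Most other immediate early genes also stood lower in CMT than in IM, but by less. None of the other 17 measured genes of that list was a member, beside 76 of 15722 over all measured mRNA genes. FOS stood at 493, 552 and 174 UQRPKM, EGR1 at 406, 363 and 148, and DUSP1, a phosphatase that switches off MAP kinases, at 1686, 1253 and 782. The list had a median log2 ratio, with a pseudocount of 1, of -0.26 in CM and -1.09 in CMT, beside -0.05 and -0.07 over all mRNA genes. MYC, at 163, 150 and 175, had no such order. ATF3 (LOC100738612), a transcription factor induced by stress, is of that list but has only its LOC name in the files and is not in these counts. It stood at 103, 45.6 and 47.0 UQRPKM. Its log2 ratio between CMT and CM was 0.04 (95% interval -0.46 to 0.55).

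MED29 (LOC100514373), a subunit of the Mediator complex that links transcription factors to RNA polymerase II, lies next to ZFP36 in the Sscrofa11.1 gene order. It stood at 32.6 UQRPKM in IM (54 reads), 0.633 in CM (1 read) and 0 in CMT. The log2 ratio in CM was -5.69 (95% interval -11.02 to -3.15), and IM was at least 17.6-fold above CMT. None of 27 other measured Mediator genes was a member, beside 76 of 15722 over all measured mRNA genes. The median log2 ratio of these 27 was -0.01 in CM and -0.08 in CMT. The nearest of them to the rule was MED24, at 68.2, 34.9 and 27.7.

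The genes on either side of this pair had no such gap. PAF1 (LOC100514194) stood at 384, 312 and 264 UQRPKM, SAMD4B at 163, 123 and 128, and GMFG at 354, 367 and 338. RPS16, a ribosomal protein gene, stood at 9464, 5406 and 6402. PLEKHG2, the direct neighbour on the side of ZFP36, had 0, 3 and 2 reads. Gene order was searched for all members that could be placed. Of 36 placed members, 4 lay within 5 genes of another member, namely MED29 beside ZFP36 and CRABP1 within 3 genes of ACSBG1. The share for other sets of placed genes was not computed, so nothing is read from this count.

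**Figure D4:**
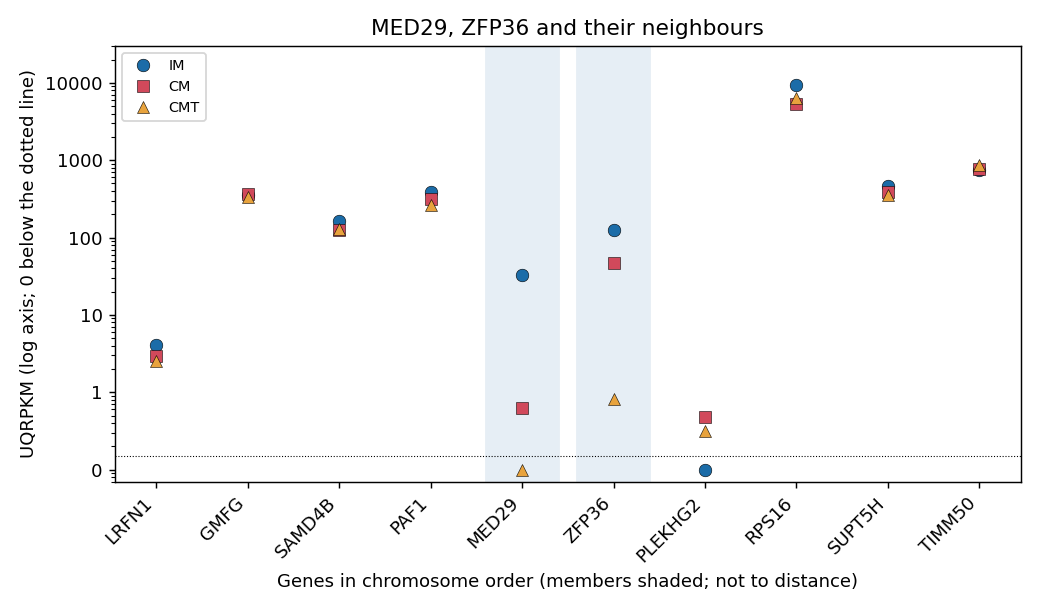
UQRPKM on a log axis for MED29, ZFP36 and their neighbours in the gene order of Sscrofa11.1, not drawn to distance, with 1 pooled library per symbol and 0 below the dotted line. The shaded pair has IM far above both castrated libraries for MED29 and far above CMT for ZFP36, while the symbols of GMFG, SAMD4B, PAF1, SUPT5H and TIMM50 lie close together.

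Members with roles in channels, transport or nerve cells were led by ASIC1, an ion channel that opens when the outside of a cell turns acid. ASIC1 stood at 109, 15.2 and 31.7 UQRPKM in IM, CM and CMT, from 608, 81 and 174 reads. Its log2 ratio was -2.84 in CM (95% interval -3.19 to -2.50) and -1.78 in CMT (-2.03 to -1.53), and the 2 intervals did not overlap. The related channel genes ASIC3 and ASIC4 stayed below 1 UQRPKM in every library, and ASIC2 was listed at 0.

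SCN4A, the sodium channel of skeletal muscle, stood at 21.3, 7.89 and 9.07 UQRPKM. Skeletal muscle genes had another order, and their list summed to 79.6, 65.9 and 5894 UQRPKM. SCN2B, a beta subunit of such channels, stood at 16.9, 5.92 and 6.97 and was excluded only by the minimum in IM. SLC4A11, a membrane transporter, stood at 27.1, 6.21 and 10.4, whereas SLC4A4, a bicarbonate transporter, stood at 34.9, 37.6 and 34.3.

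HAP1 and F8A1 both encode partners of huntingtin. HAP1 stood at 68.1, 32.3 and 30.7 UQRPKM from 451, 204 and 199 reads, and its CMT to CM log2 ratio was -0.08 (95% interval -0.36 to 0.21). F8A1 stood at 25.0, 7.94 and 10.8 from 33, 10 and 14 reads. NDRG4, a gene of brain and heart, stood at 24.9, 4.83 and 8.11. PLEKHG5, an activator of the GTPase RhoA, stood at 48.8, 15.3 and 23.4 UQRPKM. In 6 of the 7 genes of this group, which was formed with the values known, CMT lay above CM in value, beside 34 of all 76 members. The same count over all genes is not given here, so nothing is read from it. For ASIC1 and PLEKHG5 the higher CMT value passed the exact test, as it did for 15.0% of all genes at 20 UQRPKM or more in IM. None of the 6 measured genes of the nerve and Schwann cell list was a member, beside 76 of 15722 over all measured genes. That list summed to 332, 275 and 286.

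Enzymes and carriers, mostly of metabolism, were a further group of 7, of which 6 are described. DDC, the decarboxylase that makes dopamine and serotonin, stood at 131, 58.5 and 60.7 UQRPKM from 247, 105 and 112 reads. It was the only member among 10 measured genes of amine synthesis, storage and breakdown, beside 76 of 15722 over all measured mRNA genes. The list holds DDC itself, so nothing is read from this count. MAOA, of the same list, stood at 1099, 1221 and 1081.

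ABCD4, a lysosomal transporter of vitamin B12, stood at 118, 46.1 and 26.3 UQRPKM in IM, CM and CMT. The step from CM to CMT passed the exact test with an adjusted p of 0.000442, at a log2 ratio of -0.81 (95% interval -1.22 to -0.40). ACSBG1, which activates long-chain fatty acids, stood at 32.1, 11.9 and 14.5. ADAMTS4, a protease of aggrecan in the extracellular matrix, had the highest IM value in this group, at 222, 111 and 108 UQRPKM from 1241, 590 and 591 reads, and was also the member nearest to the 2-fold limit.

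UGT1A3, which joins glucuronic acid to steroids and drugs, stood at 50.4, 24.5 and 16.4 UQRPKM. It was the only member among 20 measured genes of phase II metabolism, beside 76 of 15722 over all measured mRNA genes. As that list holds UGT1A3 itself, nothing is read from this count. UGT1A6 stood at 38.3, 82.7 and 40.6. UGT1A genes share exons, and how reads on shared exons were divided is not given in the sources used here. CRABP1, a carrier of retinoic acid inside cells, had 20, 0 and 6 reads, or 25.4, 0 and 7.77 UQRPKM, and IM was at least 6.35-fold above CM. CRABP2 stood at 56.8, 77.9 and 32.3, whereas ALDH1A2, another retinoid gene, stood at 488, 267 and 286 and missed the rule. CRABP1 was the only member among 7 measured retinoid genes, a list formed with the values known, beside 76 of 15722 over all measured mRNA genes.

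Genes of RNA, DNA and chromatin made a group of 6. DUS3L, an enzyme that modifies uridine in tRNA, stood at 52.3, 3.59 and 13.7 UQRPKM in IM, CM and CMT, from 168, 11 and 43 reads. Its ratios to IM, as log2, were -3.86 in CM (95% interval -4.89 to -2.99) and -1.94 in CMT (-2.46 to -1.45). NOL12 (LOC100737940), a nucleolar protein, had the opposite order of the castrated libraries, at 39.9, 18.5 and 4.14. Both differences between CMT and CM passed the exact test.

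ALKBH4 (LOC100520070), a demethylase, stood at 27.2, 1.71 and 5.0 UQRPKM from 50, 3 and 9 reads. OARD1 (LOC100518497), which removes ADP-ribose from proteins, stood at 22.2, 3.25 and 1.72 from 79, 11 and 6 reads. REC8, a cohesin subunit best known from meiosis, stood at 34.4, 16.8 and 11.3. RNF8, a ubiquitin ligase that acts at DNA breaks, stood at 23.8, 10.3 and 7.49. In these 4 genes the intervals of CMT over CM covered 1 except for REC8, whose log2 ratio of -0.57 (95% interval -1.12 to -0.03) did not pass after adjustment.

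The 6 remaining named members had IM values between 21.8 and 677 UQRPKM. TAX1BP3, a small protein with a PDZ domain, stood at 677, 297 and 217 UQRPKM from 1347, 563 and 423 reads. Its CMT value was below CM with a log2 ratio of -0.45 (95% interval -0.64 to -0.27), which passed the exact test at an adjusted p of 1.11e-05. NRIP3 had the most reads of all members, 1618, 676 and 730, and stood at 293, 128 and 135. NRIP3 did not differ beyond counting error between CMT and CM, at a log2 ratio of 0.07 (95% interval -0.08 to 0.22).

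TMEM229A, a membrane protein, stood at 65.3, 21.7 and 23.7 UQRPKM. NGR, named here as deposited, stood at 72.1, 33.3 and 30.7. AHSA2, related to an activator of the chaperone HSP90, stood at 23.9, 10.7 and 11.6, and LGALSL (LOC100270690), a galectin-like protein, at 21.8, 6.65 and 6.83. These 4 differed by at most 1.5-fold between CM and CMT.

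Of the 5 highest IM values among the members, 4 belonged to genes without a symbol. LOC102166665 stood at 934, 284 and 180 UQRPKM in IM, CM and CMT, from 483, 140 and 91 reads. LOC100739136 stood at 931, 407 and 401 from 1293, 538 and 545 reads. LOC100738712 stood at 416, 76.8 and 87.7. These 3 were thus lower in both castrated libraries on more than 90 reads each.

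LOC100737997, the remaining one of these 4, had castrated libraries far apart, at 516, 40.2 and 222 UQRPKM from 404, 30 and 170 reads. LOC100519253 had the same order at 60.7, 7.15 and 24.0, and LOC100739592 at 52.4, 10.6 and 21.3. In contrast, LOC100623625 was lowest in CMT, at 62.4, 16.7 and 1.54 from 165, 42 and 4 reads. The supplementary annotation of the study describes it as tristetraprolin-like, so it may be another model of ZFP36. LOC100737949 was near 0 in both, at 67.0, 1.58 and 0 from 133, 3 and 0 reads, with IM at least 43.4-fold above CMT. The same annotation gives it the symbol MED29, so it may repeat LOC100514373. Whether either pair is 1 gene, which would lower the number of members, was not tested. The symbol-less members thus held both orders of the castrated libraries.

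LOC100524880 stood at 98.7, 35.4 and 10.8 UQRPKM and LOC100625119 at 58.7, 27.7 and 17.9, so both were lowest in CMT. LOC100736944 stood at 110, 51.1 and 50.9, LOC100738481 at 94.8, 35.8 and 31.7, and LOC102159870 at 88.8, 30.5 and 24.4. LOC102162202 stood at 45.4, 13.3 and 15.9, LOC100155725 at 31.7, 13.6 and 9.78, and LOC100522758 at 31.0, 13.4 and 10.5. For these 6 the interval of CMT over CM covered 1. LOC100738654 stood at 26.2, 7.29 and 4.59, LOC100154485 at 20.4, 8.45 and 3.84, and LOC100152984 at 20.1, 6.94 and 3.12. The other 17 members without a symbol had 10 to 48 reads in IM. They stood between 20.7 and 67.7 UQRPKM in IM, between 0 and 17.0 in CM and between 0 and 31.5 in CMT.

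The rule did not set CMT against CM, but it used both values and held each at least 2-fold below IM, which limits how far they can differ. Genes whose CMT value came closer to IM than 2-fold were left out by the rule. The comparison of CMT with CM therefore describes only the genes that the rule kept. It cannot show how often testosterone given after castration went with a higher level than castration alone. The reads of each gene in the 2 libraries were compared by a two-sided exact binomial test, which speaks of these libraries and not of the conditions. Its p-values were adjusted by Benjamini-Hochberg over 16502 mRNA genes. Of 74 members with reads in either library, 6 (8.11%) were higher in CMT and 8 (10.8%) were lower at an adjusted p under 0.05. Over all 16502 genes the shares were 12.0% higher and 15.1% lower, and over the genes at 20 UQRPKM or more in IM they were 15.0% and 19.8%. The other genes were free of the limit that the rule sets, so nothing is read from the shares of the members against these. The members also had fewer reads.

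The 6 members higher in CMT were still at least 2-fold below IM by the rule. LOC100737997 had the largest such difference with a log2 ratio of 2.46 (95% interval 1.90 to 3.07, adjusted p = 1.39e-22 by the exact test). ASIC1 was higher by 1.06 on the log2 scale (0.67 to 1.46, exact test adjusted p = 2.62e-07), DUS3L by 1.93 (0.95 to 3.03, exact test adjusted p = 0.000173) and LOC100519253 by 1.75 (0.75 to 2.87, exact test adjusted p = 0.00134). PLEKHG5 was higher by 0.61 (0.20 to 1.02, exact test adjusted p = 0.0144). LOC102160988 had 39 reads in IM, none in CM and 19 in CMT, which also passed the exact test at an adjusted p of 4.37e-05.

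Among the 8 members lower in CMT, ZFP36 and LOC100623625, which may be models of the same gene, had the lowest ratios. LOC100623625 had a log2 ratio of -3.43 (95% interval -5.37 to -1.97, exact test adjusted p = 4.12e-08). NOL12 (LOC100737940) followed with -2.16 (-3.73 to -0.84, exact test adjusted p = 0.00242) and LOC100524880 with -1.72 (-2.52 to -0.97, exact test adjusted p = 8.52e-06). ABCD4, LOC102166665, LOC100625119 and TAX1BP3 were lower by less than 1 on the log2 scale. At an unadjusted p under 0.05, 21 members differed in either direction, and 60 of the 74 did not pass after adjustment. In value alone, CMT was above CM in 34 members and below it in 40, and 36 members were within 1.5-fold. The counts by unadjusted p and by value alone are not given here for all genes, so nothing is read from them.

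**Figure D5:**
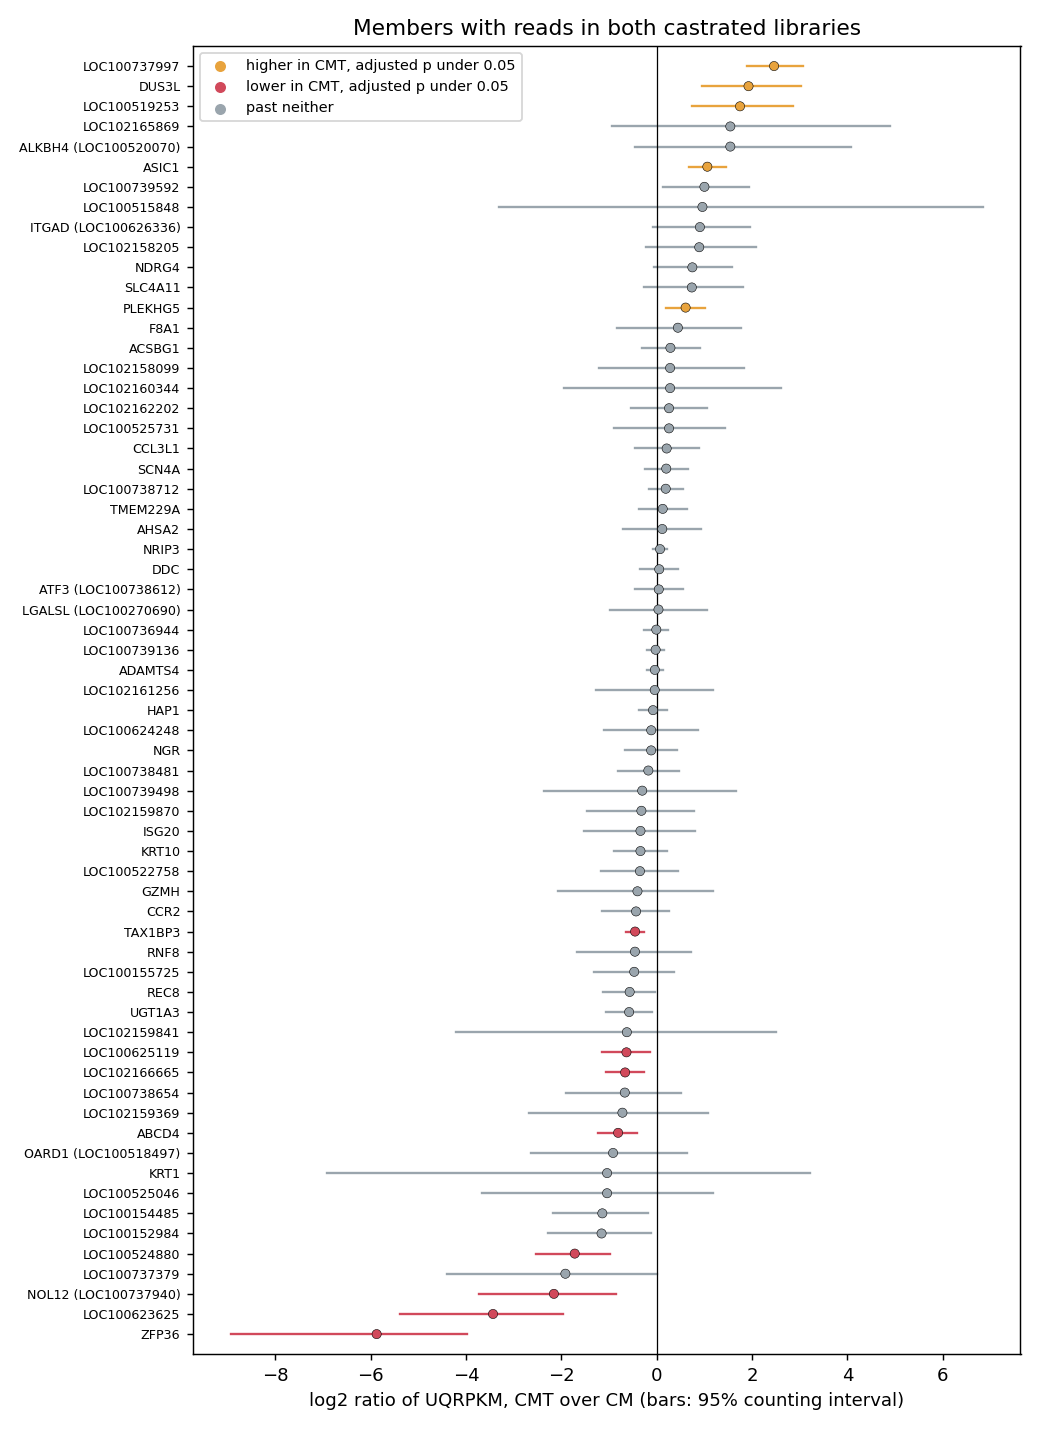
Log2 ratio of UQRPKM between CMT and CM for 64 members with reads in both castrated libraries, with exact 95% counting intervals as bars; the 5 orange and 8 red points passed the exact binomial test with Benjamini-Hochberg adjustment. Most bars cross 0, and ZFP36 at the bottom lies at -5.87.

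At the edge of the rule, members and other genes differed little. Just above 20 UQRPKM in IM lay LOC100152984 at 20.1, LOC100154485 at 20.4 and LOC102161743 at 20.7. Just below lay UHRF2 at 19.7, LOC102157989 at 19.6 and LOC100738227 at 19.0, all of which met the 2-fold condition. At the 2-fold limit, ADAMTS4, LOC102160988 and CCR2 were inside with IM at 2.005, 2.01 and 2.02 times the larger castrated value. ADRA1D, LOC100513218 and LOC102168180 were outside with 1.997, 1.996 and 1.993 times.

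Listed genes known to answer to androgen were not among the members. None of 8 measured genes of that list was 2-fold below IM in both castrated libraries. Of all mRNA genes that reached 1 UQRPKM in some library, 3.16% met that rule with IM at 1 UQRPKM or more. At that share lists this short would mostly hold none, so nothing is read from an absence here or in the lists that follow. FKBP5, a partner of steroid receptors, stood at 301, 283 and 269 UQRPKM and ZBTB16, a transcription factor, at 265, 177 and 213. None of 14 measured receptors, enzymes and targets for other testis hormones was a member. AMHR2, a receptor for anti-Mullerian hormone, met the 2-fold condition at 3.82, 0.925 and 1.20 UQRPKM but not the minimum, and ESR1, an estrogen receptor, stood at 30.2, 30.4 and 33.3. The B and plasma cell list (7 measured genes), the adrenal cortex list (3) and the adrenal medulla list (4) held no member either. Of the kidney tubule list 5 of 7 genes were listed at 0 in all libraries, and FXYD2 stood at 10.6, 2.23 and 0.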

How the data were processed

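RNA-Seq libraries of visceral fat, 1 pool per group, were assigned to IM, CM and CMT by their labels. The authors mapped single-end Ion Proton reads to the pig genome Sscrofa10.2 with MapSplice and deposited RPKM values scaled by the upper quartile (UQRPKM) for each gene. The counting tool, its use of strand and its handling of reads that fit several gene models are not given in the sources used here. Reads were recovered from the deposited values as the smallest whole numbers that fit all libraries, at upper quartiles of 149, 142 and 146. They can be too low by a common factor. Recovery was tested on simulated data. Ratios carry no pseudocount unless stated. Fold limits against 0 use a floor of 3 reads per library. The expected share in the exact binomial test followed from the upper quartiles.

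The members and lists were chosen with earlier results of these data known. One member is counted but not reported here by name. All 3 values are given for the other members with a symbol and for LOC members with 50 or more reads in IM. Gene names and gene order came from RefSeq for Sscrofa11.1, and no coordinates are given because the builds differ. Sequences and promoter motifs were not analysed here. Python 3.11.15, pandas 2.3.3 and scipy 1.17.1 were used.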

Additional observations from a re-analysis of the deposited data

How the results depend on the processing

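The number of members depends on the limits of the rule. It was 132 at a minimum of 10 UQRPKM in IM, 33 at a minimum of 50, and 743 with no minimum. It was 302 with a limit of 1.5 times and 27 with a limit of 3 times, and 115 over all gene types. Rescaling to equal mRNA totals left 70 members, median-of-ratios size factors 64 and a pseudocount of 1 UQRPKM 69, and an exact test in both comparisons left 69. All 70 and all 64 were among the 76. ADAMTS4, CCR2, AHSA2, ITGAD (LOC100626336), LOC102160988 and LOC100152984 were lost under both scalings, and UGT1A3, PLEKHG5, REC8, LOC100739498, LOC102161743 and LOC100154485 under size factors. With a fold change of 1.5 and no test, 13 members were higher and 14 lower in CMT than in CM. Such counts are not given here for all genes, so nothing is read from them. Under the other test settings 5 to 6 members were higher and 6 to 8 lower. No log2 ratio of a named member reversed under another scaling or the pseudocount where it was called. No paired analysis was possible because each group is 1 library, and no library could be left out. With a median of 83.5 reads in IM, small differences between CM and CMT were not detectable for many members.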

Other observations

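Among genes of other types, 39 met the same rule, of which 30 were classed as miscRNA, 5 as ncRNA, 3 as precursor miRNA and 1 as tRNA. The highest was LOC100625863, an ncRNA at 288, 84.3 and 66.4 UQRPKM in IM, CM and CMT from 283, 79 and 64 reads. LOC100157010, also an ncRNA, had 46, 0 and 1 reads. LOC102165561, a miscRNA, had 39, 1 and 1 reads. The precursor miRNAs rested on at most 10 reads in IM, with MIR29C at 10, 3 and 1 reads.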
